A study of Mus musculus with 24 samples.

Results

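The circadian clock genes described here were 10 genes taken by name: Arntl (the gene of BMAL1) and Clock, Per1, Per2 and Per3, Cry1 and Cry2, Nr1d1 and Nr1d2 (the genes of REV-ERBα and REV-ERBβ), and Dbp. A probe of the array was given to a gene where the RefSeq transcript in its annotation belonged to that gene, which gave 19 probes of 56605 and 10 genes of 23787 with a symbol on the array. The rule itself used names and no measured value, but the list was chosen with earlier results of these data known. Counts and sizes of the members beside those of all probes are therefore a description and no test of the list. All 10 genes had at least 1 probe that passed the detection filter, and 17 of the 19 probes passed it. The 2 that did not were a Clock probe (A_55_P2741789), well above background on 0 of 24 arrays, and a Per3 probe (A_66_P135046), well above background on 3 arrays.

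The data came from TM3 cells, an established line of mouse Leydig cells, the testosterone-producing cells of the testis. The cells were grown in medium with horse serum and fetal bovine serum. They were detached, washed and placed in suspension in a binding buffer in electroporation cuvettes. There they were either given 80 electric pulses of 60 ns at 14 kV/cm over 180 s (nanosecond pulsed electric field, nsPEF) or handled in the same way without pulses (sham). They were collected at 0, 4 or 24 h. Each of the 6 groups, called S0, S4 and S24 for sham and E0, E4 and E24 for nsPEF, held 4 replicates that the study's methods call biological, and total RNA of each was hybridised to 1 one-colour Agilent array. The question put to the clock genes was whether their transcript levels differed between times after handling and between nsPEF and sham. Each of the 3 slides carried the 8 arrays of 1 time, so a difference between times cannot be told apart from a difference between slides. The 0 h cells came straight from exposure, whereas the later cells had spent hours in what the study calls standard culture. Time and the return to culture therefore cannot be told apart either. Within a slide the sham arrays lay in row 1 and the nsPEF arrays in row 2, and the effects of treatment and of array row cannot be told apart. The TM3 line is a single cell line, and it was checked here against marker genes. Of the 8 Leydig cell markers found on the array, Star, Cyp17a1, Nr5a1 and Gata4 were well above background on all 24 arrays, whereas the brightest probes of Cyp11a1, Hsd3b1, Hsd3b6 and Lhcgr were above it on 0 arrays. All 5 mesenchymal markers (Vim, Pdgfra, Pdgfrb, Col1a1 and Col1a2) were above background on all arrays, as were Krt8 and Krt18 of 4 epithelial markers, Cd68 and Csf1r of 4 macrophage and leukocyte markers, Pecam1 of 3 endothelial markers and Sox9 of 4 Sertoli cell markers. The remaining markers of those lists, Ptprc, Adgre1, Cdh5, Kdr, Epcam, Cdh1, Amh, Fshr and Dhh, were above background on 2 arrays or fewer by their brightest probes. Of 4 germ cell markers 3 were above it on 2 or fewer. The other germ cell marker, Ddx4, was above background on all 16 arrays of S0, E0, S4 and S24 and on 0 of 4 arrays in E4 and in E24.

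The mammalian clock is a transcriptional feedback loop that runs in nearly every cell, cultured fibroblasts and Leydig cells included. BMAL1 and CLOCK bind E-box sequences as a pair and activate the Per and Cry genes, whose proteins return to the nucleus and repress that pair. In a second loop the receptors REV-ERBα and REV-ERBβ repress, and the ROR receptors activate, Arntl and other genes that hold their shared response element. DBP binds D-box sequences and passes the rhythm on to output genes. Per1 and Per2 also respond quickly to serum, cyclic AMP and stress, without the rest of the loop.

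The promoters of the members were searched for the sequences through which the loops act, since the members were seen to move in opposite directions. RefSeq promoter windows (build GRCm38.p6), each from 250 bases before to 50 bases after a transcript's start, were found for 9 of the 10 members, 13 windows in all; none is given for Per2. The motifs searched on both strands were the E-box CACGTG, the E-box variant CACGTT and the D-box TTATGTAA. Also searched were the letters AGGTCA, called the receptor core here, and the cAMP response element TGACGTCA. The receptor core is only a part of the response element shared by the REV-ERB and ROR receptors. The whole element was not searched. The 250 bases before the start are printed, with the motifs in capitals, for the 5 members with a window that held an E-box, its variant or a D-box. Of these, Per1 and Per3 had lower transcripts at 4 h than at 0 h, and Cry1, Cry2 and Nr1d1 higher. The windows of Dbp, Arntl and Nr1d2, which also differed at 4 h, held no E-box, variant or D-box, nor did the second Per1 window, and they are not printed.
Per1, chr11:69098699-69098948, plus strand: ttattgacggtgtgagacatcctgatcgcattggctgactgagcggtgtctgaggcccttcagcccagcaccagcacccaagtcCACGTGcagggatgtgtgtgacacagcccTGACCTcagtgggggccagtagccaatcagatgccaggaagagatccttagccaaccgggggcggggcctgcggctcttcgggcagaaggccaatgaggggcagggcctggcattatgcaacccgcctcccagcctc
Per3, chr4:151044666-151044915, minus strand: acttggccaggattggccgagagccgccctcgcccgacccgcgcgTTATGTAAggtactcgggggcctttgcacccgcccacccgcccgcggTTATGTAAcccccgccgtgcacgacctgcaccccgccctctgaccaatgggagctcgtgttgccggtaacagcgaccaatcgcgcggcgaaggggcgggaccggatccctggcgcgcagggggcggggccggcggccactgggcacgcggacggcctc
Cry1, chr10:85185055-85185304, minus strand: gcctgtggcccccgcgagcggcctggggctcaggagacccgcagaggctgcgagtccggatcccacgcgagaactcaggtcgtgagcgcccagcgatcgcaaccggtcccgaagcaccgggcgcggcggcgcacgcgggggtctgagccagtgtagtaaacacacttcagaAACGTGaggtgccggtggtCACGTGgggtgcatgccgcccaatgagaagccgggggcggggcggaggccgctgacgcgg
Cry2, chr2:92434070-92434319, minus strand: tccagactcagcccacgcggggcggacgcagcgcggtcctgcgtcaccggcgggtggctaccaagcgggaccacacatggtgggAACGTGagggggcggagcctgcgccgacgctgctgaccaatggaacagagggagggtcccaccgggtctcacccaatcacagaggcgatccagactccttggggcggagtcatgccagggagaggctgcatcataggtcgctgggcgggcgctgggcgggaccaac
Nr1d1, chr11:98775378-98775627, minus strand: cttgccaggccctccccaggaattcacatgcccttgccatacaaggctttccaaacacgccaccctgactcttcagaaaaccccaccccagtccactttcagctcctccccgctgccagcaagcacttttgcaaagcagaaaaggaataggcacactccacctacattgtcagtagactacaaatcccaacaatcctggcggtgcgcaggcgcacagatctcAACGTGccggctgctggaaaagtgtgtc
The E-box was found in the first Per1 window, at position -166 from the start, and in the Cry1 window, at -60. It was in 7.15% of the 32851 windows of all genes. The E-box variant, read as AACGTG on the gene's strand, stood at -79 in Cry1, -166 in Cry2 and -28 in Nr1d1, and was in 4.68% of all windows. Per3 held the D-box at -205 and again at -158, and 0.938% of all windows held at least 1. The receptor core was in the printed Per1 window at -137 (as TGACCT) and in windows of Nr1d2, Clock and Arntl. Of all windows, 16.3% held it. The cAMP response element was in none of the 13 windows and in 1.79% of all, and no motif was found in the Dbp window. A match in these letters is a description of the window and not a measured binding site.

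Transcript levels are given as log2 of the background-subtracted signal minus the 75th percentile of the same array, so that 1 unit is a 2-fold difference and a level is relative to the bulk of the array's probes. Where a gene had several tested probes, the brightest stood for the gene and the others are described further on. A gene was called changed where limma's moderated test, fitted to all 24 arrays and adjusted by Benjamini-Hochberg over 37684 tested probes, gave a value below 0.05. In bulk RNA a lower level in every cell and fewer cells that carry a transcript cannot be told apart.

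Time after handling separated nearly all clock genes. Over the 3 times, 9 of the 10 genes were called, all but Clock, against 80.2% of all tested probes, so a call by itself was common on these arrays. At 4 h the sham cells had higher Arntl, Cry1, Cry2, Per2 and Nr1d1 (5 of 10 genes, against 29.4% of all probes called higher) and lower Per1, Per3, Nr1d2 and Dbp (4 of 10, against 29.7% called lower) than at 0 h. Cry1, Per2, Per1, Per3 and Dbp differed by at least 2-fold, 5 of 10 genes against 17.4% of all probes. The nsPEF cells gave the same 9 genes in the same directions (33.5% of all probes called higher, 27.8% lower), and the same 5 passed 2-fold (20.0% of all probes). The 2-fold count turned on the probe for some genes. Cry1 and Per2 passed on their brightest probe and not on their other one, and Clock only on its other one. The brightest Cry1 probe was so over all arrays but not at 0 h (mean -3.80 against -3.46 in S0 and -4.09 against -3.56 in E0). The median size of the 4 h difference over the 10 genes was 0.96 in sham and 1.08 in nsPEF on the log2 scale, beside 0.47 and 0.51 over all tested probes.

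From 4 h to 24 h each of the 9 genes went back in the opposite direction in sham cells: 4 were called higher (27.8% of all probes) and 5 lower (29.9%), and 5 passed 2-fold (17.0%). Of these 5, Cry1 and Per2 passed on their brightest probe alone, and their other probes differed by -0.57 and 0.59. In nsPEF cells 3 were called higher (27.5%) and 5 lower (29.0%), and 4 passed 2-fold (16.3%); the ninth, Nr1d2, differed by 0.26 (adjusted p = 0.168). The 4 h arrays stand in both of these comparisons, so the opposite signs are not independent of each other. A scaling on the spike-in RNA in place of the 75th percentile left 9 sham calls and 8 nsPEF calls at 4 h against 0 h with their directions. However, it moved the differences from 4 h to 24 h up, by 0.66 in sham and 0.405 in nsPEF for probes with a value on every array. The medians over all probes, 0.012 and -0.025 before, became 0.67 and 0.38 on that scale. Clock, whose brightest probe lacked an E24 array, moved from 0.10 to 0.54 in nsPEF. On that scale 5 genes were called higher and 2 lower in sham, 5 higher and 3 lower in nsPEF. The share of all probes called on it was not counted, so these counts do not set the clock genes apart from the array. In sham the calls of Arntl (-0.0096, adjusted p = 0.946), Cry1 (-0.40, adjusted p = 0.274) and Cry2 (turned to 0.19, adjusted p = 0.107) were lost. In nsPEF those of Cry1 (-0.48, adjusted p = 0.203) and Cry2 (-0.15, adjusted p = 0.217) were lost.

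**Figure D1:**
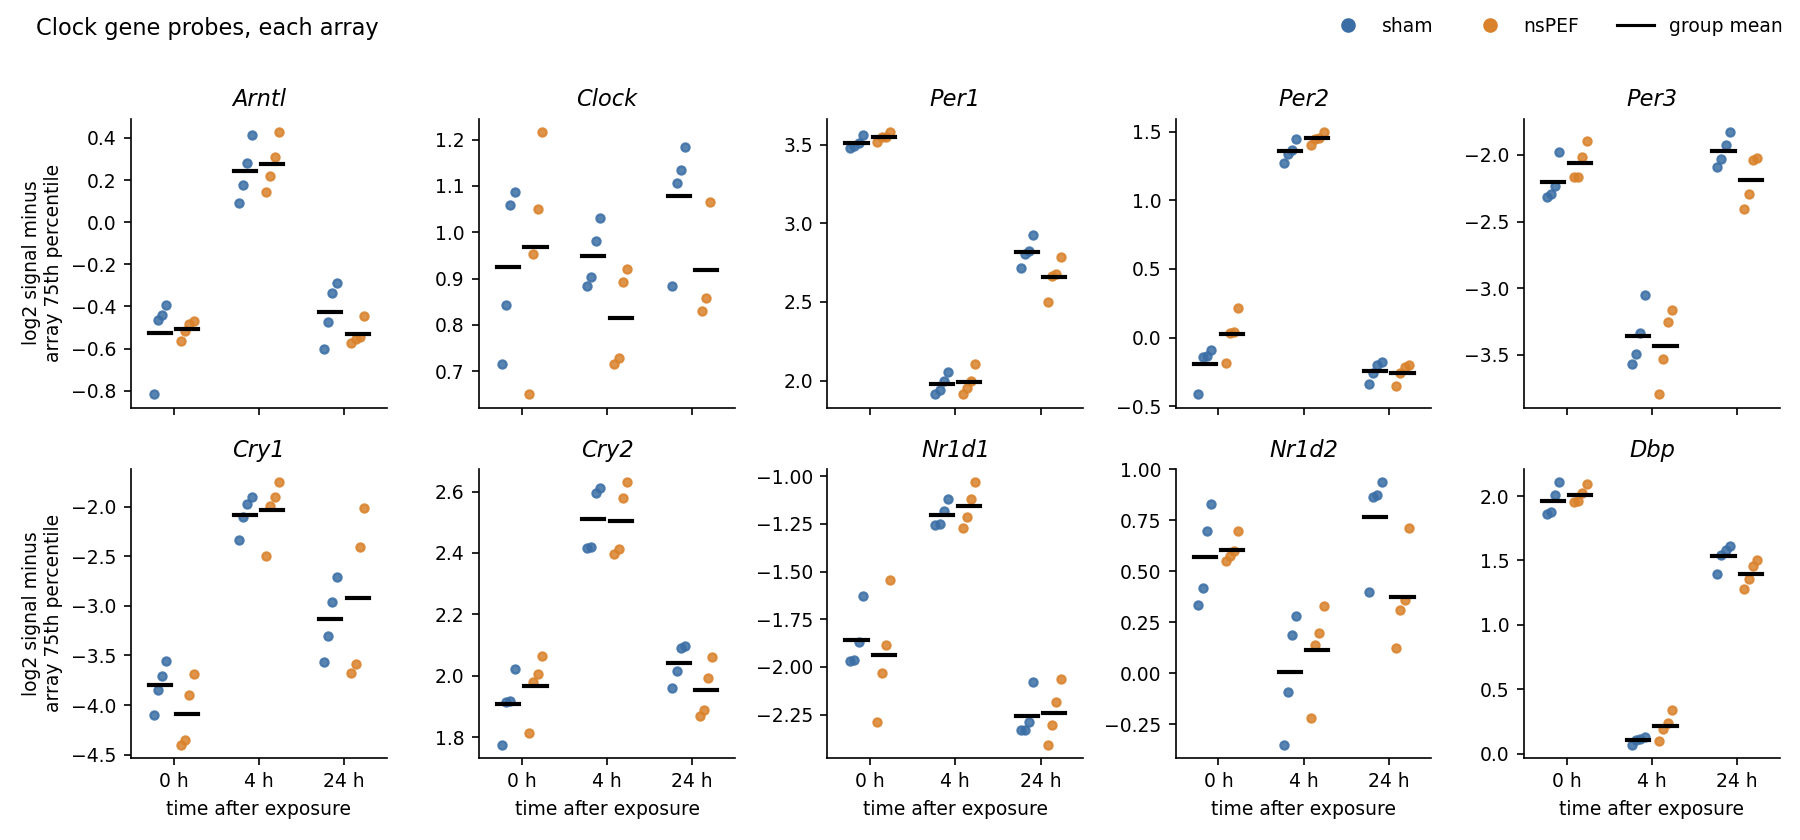
Levels of the 10 clock genes on each of the 24 arrays, as log2 signal minus the array's 75th percentile (vertical axis, a separate range in each panel), by time after exposure (horizontal axis). Each point is an array, blue for sham and orange for nsPEF, and a black bar is the group mean. Per1, Per3 and Dbp are lowest at 4 h and Per2, Cry1, Cry2, Arntl and Nr1d1 highest, with sham and nsPEF side by side at each time.

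**Figure D2:**
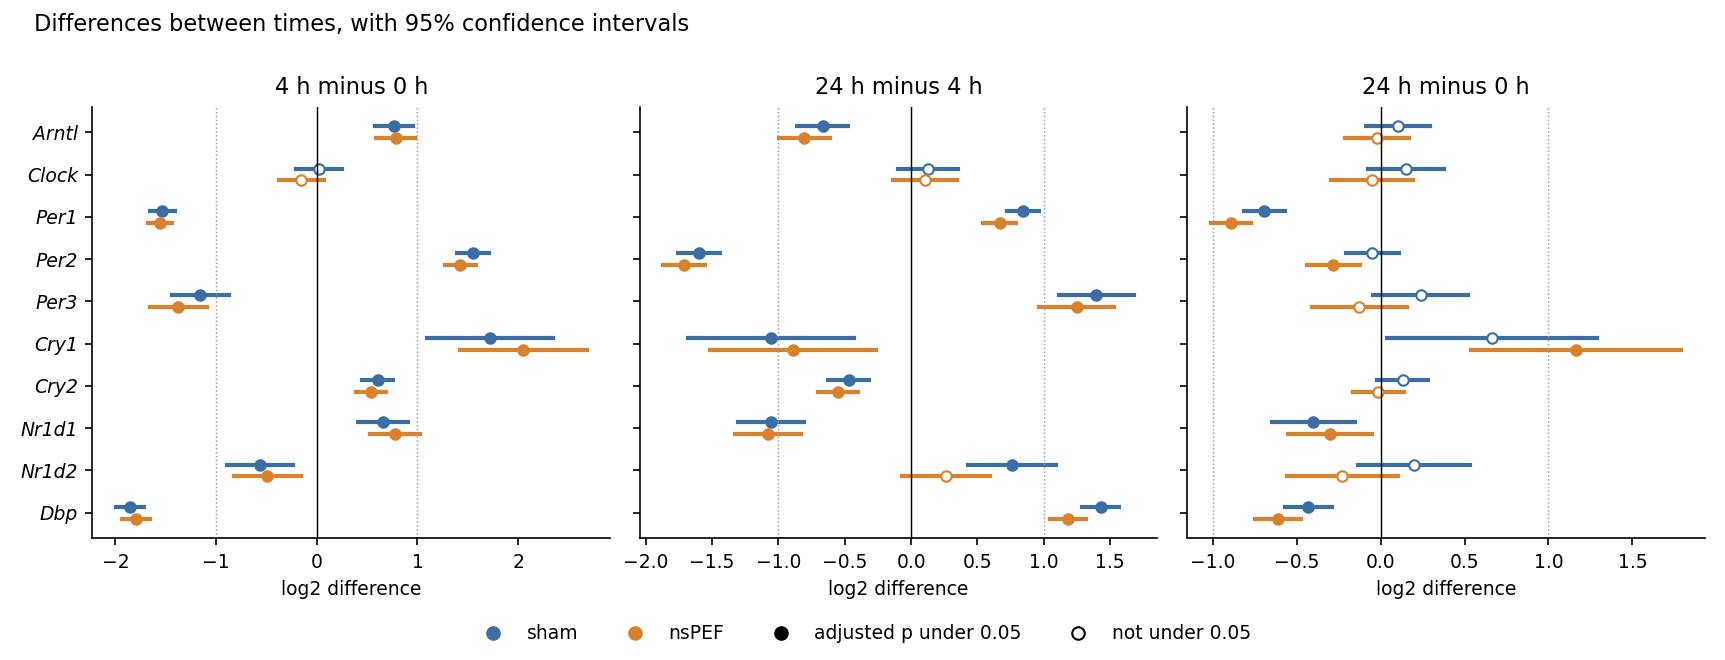
Differences between times for the 10 clock genes on the log2 scale (horizontal axis) in sham (blue) and nsPEF (orange), with 95% confidence intervals of limma's fit. A filled point has an adjusted p under 0.05 and the dotted lines mark 2-fold. Cry1 has the widest intervals, with a 4 h difference of 2.05 in nsPEF whose E0 mean rests on 2 of 4 arrays above background, and 24 h minus 0 h lies within 2-fold for all genes but Cry1 in nsPEF (1.16).

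Of the activators, Arntl was higher at 4 h and Clock differed between its probes. The Arntl level at 0 h was -0.82, -0.46, -0.39 and -0.44 on the sham arrays and -0.56, -0.52, -0.47 and -0.48 on the nsPEF arrays. At 4 h the S4 arrays read 0.42, 0.28, 0.18 and 0.091 and the E4 arrays 0.31, 0.43, 0.14 and 0.22. At 24 h it read -0.29, -0.34, -0.47 and -0.60 (S24) and -0.45, -0.57, -0.55 and -0.55 (E24). All 8 arrays of 4 h lay above all 16 arrays of the other times. The 4 h difference was 0.77 ± 0.091 (SE, n = 4 against 4; adjusted p = 3.1e-07, limma) in sham, a fold of 1.70, and 0.78 ± 0.091 (adjusted p = 2.4e-07) in nsPEF. From 4 h to 24 h Arntl fell by 0.67 (adjusted p = 2.6e-06) in sham and 0.80 (adjusted p = 2.1e-07) in nsPEF relative to the 75th percentile, and on the spike-in scale the differences were -0.0096 (adjusted p = 0.946) and -0.40 (adjusted p = 0.00671). The other Arntl probes, both for another transcript of the gene, were dimmer. One of them, A_66_P127371, moved like the brightest one, by 0.69 in sham (adjusted p = 2.3e-04, limma) and 0.40 in nsPEF (adjusted p = 0.0171). The last, A_55_P2735445, is described with the comparison of nsPEF and sham, where it stood apart.

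Clock had 2 tested probes that gave different answers. The brightest, A_55_P2746404, lay between 0.71 and 1.09 in S0, 0.88 and 1.03 in S4 and 0.88 and 1.18 in S24, and between 0.65 and 1.22 over the 3 nsPEF groups. These ranges overlapped, and the 4 h difference was 0.024 in sham (95% interval -0.20 to 0.25; adjusted p = 0.874, limma) and -0.15 in nsPEF (-0.38 to 0.072; adjusted p = 0.227). One E24 array had no usable spot of this probe, so its E24 mean rests on 3 arrays. Without E0 replicate 2 the nsPEF difference became -0.26 (adjusted p = 0.0307). The other probe of the same transcript, A_52_P334670, lay between -0.24 and 0.26 in S0, at 1.15, 1.22, 1.23 and 0.80 in S4 and between 0.012 and 0.64 in S24. It was higher at 4 h on every array than on any array of 0 h, by 1.02 in sham (adjusted p = 5.5e-06) and 1.07 in nsPEF (adjusted p = 2.9e-06), and lower again at 24 h by 0.68 (adjusted p = 6.0e-04) and 0.88 (adjusted p = 3.6e-05) in size. On the spike-in scale the latter differences were -0.019 in sham (adjusted p = 0.924) and -0.48 in nsPEF (adjusted p = 0.0189). The mean of the Clock probes gave 0.52 in sham (adjusted p = 8.7e-04) and 0.46 in nsPEF (adjusted p = 0.00262) at 4 h, so whether Clock is counted with the genes that changed turned on the probe.

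The 3 Period genes, whose proteins form the repressor with the cryptochromes, did not move together. Per1 read 3.56, 3.51, 3.48 and 3.49 on the S0 arrays and 3.55, 3.58, 3.52 and 3.55 on the E0 arrays. At 4 h it read 1.94, 1.92, 2.00 and 2.06 on the S4 arrays and 1.91, 1.96, 2.00 and 2.10 on the E4 arrays. Its 24 h values of 2.71, 2.83, 2.81 and 2.93 (S24) and 2.66, 2.68, 2.79 and 2.50 (E24) lay between the other times with no overlap. Per1 fell by 1.53 (SE 0.058, 2.89-fold; adjusted p = 8.1e-15, limma) in sham and by 1.56 (2.94-fold; adjusted p = 5.7e-15) in nsPEF at 4 h, and then rose by 0.84 (adjusted p = 1.3e-10) and 0.67 (adjusted p = 4.8e-09) to 24 h.

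On its brightest probe Per2 moved the opposite way. It lay at -0.092, -0.14, -0.41 and -0.13 in S0 and at 0.043, -0.19, 0.034 and 0.21 in E0. All 8 arrays at 4 h were higher, at 1.34, 1.27, 1.36 and 1.45 in S4 and 1.41, 1.50, 1.45 and 1.46 in E4. At 24 h it was back at -0.18, -0.26, -0.20 and -0.34 in S24 and -0.22, -0.26, -0.35 and -0.20 in E24. Per2 rose by 1.55 (SE 0.076, 2.93-fold; adjusted p = 4.1e-13, limma) in sham and by 1.43 (2.69-fold; adjusted p = 1.4e-12) in nsPEF, and fell by 1.60 (adjusted p = 4.1e-13) and 1.71 (adjusted p = 1.7e-13) from 4 h to 24 h. By this Per2 probe, Per1 and Per2 thus moved in opposite directions at 4 h in each treatment, each relative to its own 0 h level. A dimmer Per2 probe, A_52_P536869, did not follow. It lay between -4.21 and -2.52 over all arrays, differed by -0.46 at 4 h in sham (adjusted p = 0.0515) and -0.29 in nsPEF (adjusted p = 0.207), and rose from 4 h to 24 h by 0.59 (adjusted p = 0.0157) and 0.79 (adjusted p = 0.00208). Its signs were those of Per1, so the opposite movement of Per1 and Per2 turned on the probe.

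Per3 went with Per1 at 4 h. It read -2.29, -2.32, -2.23 and -1.98 in S0, -3.05, -3.49, -3.34 and -3.57 in S4 and -1.83, -1.92, -2.09 and -2.03 in S24. In nsPEF it read -2.17, -1.90, -2.17 and -2.02 in E0, -3.80, -3.53, -3.25 and -3.16 in E4 and -2.04, -2.29, -2.02 and -2.41 in E24. Every 4 h array was below every array of the other times. The fall at 4 h was by 1.16 (SE 0.14, 2.23-fold; adjusted p = 2.6e-07, limma) in sham and by 1.38 (2.59-fold; adjusted p = 2.1e-08) in nsPEF. The rise to 24 h was by 1.40 (adjusted p = 2.2e-08) and 1.25 (adjusted p = 1.2e-07). With normexp background correction the 4 h differences were under 2-fold, at -0.70 (adjusted p = 3.3e-06) and -0.54 (adjusted p = 1.1e-04).

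Both cryptochromes, the direct repressors of the BMAL1 and CLOCK pair, were higher at 4 h. Cry1 was dim at 0 h, at -4.11, -3.55, -3.84 and -3.71 in S0 and -4.36, -4.40, -3.69 and -3.90 in E0, and the lower 2 of those E0 values were not well above background. At 4 h it reached -1.98, -1.90, -2.11 and -2.33 in S4 and -1.75, -1.99, -2.49 and -1.90 in E4, above all 0 h arrays. At 24 h it spread from -3.57 to -2.71 in S24 and, in E24, over -2.41, -3.67, -3.59 and -2.02. The E24 arrays therefore fell into a higher and a lower pair, the widest spread of Cry1 in any group. Cry1 rose at 4 h by 1.72 (SE 0.30, 3.30-fold; adjusted p = 4.8e-05, limma) in sham and by 2.05 (4.15-fold; adjusted p = 5.5e-06) in nsPEF. These sizes depended on how dim signals were treated: with normexp background correction the 4 h differences were 0.54 (adjusted p = 3.1e-04) and 0.75 (adjusted p = 6.3e-06). The fall to 24 h was by 1.06 (adjusted p = 0.00500) in sham and by 0.89 (adjusted p = 0.0160) in nsPEF. Both of those calls were lost on the spike-in scale (-0.40, adjusted p = 0.274, and -0.48, adjusted p = 0.203), and the nsPEF call was lost without E24 replicate 2 (-0.64, adjusted p = 0.075) or E24 replicate 3 (-0.67, adjusted p = 0.0716). Its other probe, A_55_P2880103, rose at 4 h by 0.66 (adjusted p = 5.7e-04) and 0.93 (adjusted p = 1.1e-05), and its sham call was lost with normexp (0.067, adjusted p = 0.579). Cry2 changed less and with less spread. It read 1.92, 2.02, 1.77 and 1.91 in S0, 2.61, 2.60, 2.42 and 2.42 in S4 and 2.09, 2.10, 2.01 and 1.96 in S24. In nsPEF it read 1.98, 1.81, 2.01 and 2.06 in E0, 2.58, 2.63, 2.40 and 2.41 in E4 and 2.06, 1.99, 1.87 and 1.89 in E24. The 4 h arrays stood clear of the other times in both treatments, and the 0 h and 24 h arrays overlapped. Cry2 rose by 0.60 (SE 0.073, 1.52-fold; adjusted p = 4.2e-07, limma) in sham and by 0.54 (1.45-fold; adjusted p = 2.0e-06) in nsPEF at 4 h, and fell by 0.47 (adjusted p = 1.3e-05) and 0.55 (adjusted p = 1.8e-06) to 24 h.

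The REV-ERB receptor genes, which encode the repressors of Arntl, moved in opposite directions. Nr1d1 read -1.96, -1.97, -1.63 and -1.87 in S0, -1.25, -1.25, -1.18 and -1.12 in S4 and -2.33, -2.08, -2.33 and -2.29 in S24. In nsPEF it read -2.29, -2.03, -1.89 and -1.54 in E0, -1.03, -1.12, -1.27 and -1.22 in E4 and -2.41, -2.30, -2.07 and -2.18 in E24. The 0 h and 24 h arrays overlapped in nsPEF and not in sham. It was highest on the 4 h arrays in both treatments, by 0.65 ± 0.12 (SE, n = 4 against 4; adjusted p = 7.7e-05, limma) in sham and 0.78 ± 0.12 (adjusted p = 9.6e-06) in nsPEF over 0 h. From 4 h to 24 h it fell by 1.05 (2.08-fold; adjusted p = 2.0e-07) and 1.08 (2.12-fold; adjusted p = 1.5e-07). With normexp background correction the 4 h differences were smaller, at 0.32 (adjusted p = 3.8e-04) and 0.47 (adjusted p = 4.8e-06).

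Nr1d2 had 2 tested probes, both lower at 4 h. The brighter one, A_55_P2911007, was 0.42, 0.83, 0.33 and 0.70 in S0, 0.19, -0.091, 0.28 and -0.35 in S4, and 0.86, 0.94, 0.87 and 0.40 in S24. In nsPEF it was 0.55, 0.57, 0.70 and 0.60 in E0, 0.33, 0.14, 0.20 and -0.22 in E4, and 0.71, 0.31, 0.36 and 0.13 in E24. The 4 h arrays lay below the 0 h arrays in each treatment, whereas E24 overlapped E4. It fell at 4 h by 0.56 (1.48-fold; adjusted p = 0.00459, limma) in sham and by 0.49 (1.41-fold; adjusted p = 0.0112) in nsPEF. The nsPEF call was lost without E4 replicate 4 (-0.38, adjusted p = 0.0506), and the sham call without the replicates numbered 2 (-0.44, adjusted p = 0.0782). The rise to 24 h was 0.76 (adjusted p = 3.6e-04) in sham and the difference 0.26 (95% interval -0.068 to 0.60; adjusted p = 0.168) in nsPEF. On the dimmer probe, A_52_P303891, the differences at 4 h were -0.56 (adjusted p = 8.9e-07) and -0.44 (adjusted p = 2.0e-05). From 4 h to 24 h this probe was called in both treatments, at 0.65 (adjusted p = 1.3e-07) in sham and 0.18 (adjusted p = 0.0383) in nsPEF, and it was called lower in nsPEF at 24 h than at 0 h (-0.26, adjusted p = 0.00621), where the brighter probe differed by -0.23 (adjusted p = 0.260).

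Dbp, the output factor, fell most among the genes that fell at 4 h. It was 1.86, 2.01, 2.11 and 1.88 in S0 and 1.96, 2.09, 2.03 and 1.95 in E0. At 4 h it was 0.11, 0.11, 0.069 and 0.13 in S4 and 0.097, 0.19, 0.24 and 0.34 in E4. At 24 h it was 1.54, 1.40, 1.58 and 1.61 in S24 and 1.35, 1.46, 1.50 and 1.28 in E24. The 3 times did not overlap in either treatment. Dbp fell by 1.86 (SE 0.066, 3.62-fold; adjusted p = 3.3e-15, limma) in sham and by 1.79 (3.46-fold; adjusted p = 5.2e-15) in nsPEF, and rose from 4 h to 24 h by 1.43 (adjusted p = 3.1e-13) and 1.18 (adjusted p = 6.0e-12). Its second probe, A_55_P2032079, fell by 1.99 (adjusted p = 2.2e-14) and 2.11 (adjusted p = 7.9e-15) at 4 h.

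At 24 h most clock genes were within 2-fold of their 0 h level. In sham cells 0 of 10 genes were called higher (16.9% of all probes), 3 were called lower (19.7%) and 0 passed 2-fold (5.10%). The 3 were Per1 (-0.69, adjusted p = 1.5e-08, limma), Dbp (-0.43, adjusted p = 3.7e-05) and Nr1d1 (-0.40, adjusted p = 0.0122). In nsPEF cells Cry1 was called higher (1 of 10 genes, against 23.9%), and Per1 (-0.89, adjusted p = 3.2e-10), Dbp (-0.61, adjusted p = 4.2e-07), Nr1d1 (-0.30, adjusted p = 0.0477) and Per2 (-0.28, adjusted p = 0.00531) lower (4 of 10, against 18.3%). Cry1, at 1.16 (adjusted p = 0.00404), was the 1 gene past 2-fold in nsPEF, where 7.80% of all probes were. Its E0 mean rests on 2 of 4 arrays well above background, so the size is uncertain, and with normexp background correction it was 0.21 (adjusted p = 0.184). It was under 2-fold without E24 replicate 1 or E24 replicate 4, and its value was 0.90 (adjusted p = 0.0599) without the replicates numbered 1. The other Cry1 probe, A_55_P2880103, was well above background on all 24 arrays. It differed by 0.40 (adjusted p = 0.0313), under 2-fold, so the place of Cry1 past 2-fold turned on the probe. The Nr1d1 call was lost in sham without S0 replicate 3 (-0.32, adjusted p = 0.052) and in nsPEF without any of 5 single arrays (adjusted p from 0.0611 to 0.208). These 24 h differences are relative to the 75th percentile, and most signs depended on it. Spike-in scaling moved the differences up, by 0.71 in sham and 0.48 in nsPEF for probes with a value on every array. With it, 8 genes were called higher and 0 lower in sham, 5 higher and 1 lower in nsPEF. The medians over all tested probes on that scale were 0.705 in sham and 0.545 in nsPEF. The share of all probes called on it was not counted, so these counts do not set the clock genes apart from the array. On that scale Dbp in sham turned to 0.28 (adjusted p = 0.00308), Per1 in sham to 0.013 (adjusted p = 0.861), Nr1d1 to 0.31 in sham (adjusted p = 0.0593) and 0.18 in nsPEF (adjusted p = 0.267), and Per2 in nsPEF to 0.20 (adjusted p = 0.0576), while Per1 in nsPEF remained lower (-0.41, adjusted p = 3e-05). The Dbp call in nsPEF was lost (-0.13, adjusted p = 0.142).

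No clock gene was called between nsPEF and sham. At 0 h 0 of 10 genes passed the test (0.127% of all probes did), at 4 h 0 of 10 (3.31%) and at 24 h 0 of 10 (4.82%), by limma at an adjusted p under 0.05. The test over all times called 0 of 10 (8.84%), and the interaction, which asks whether the effect of nsPEF differed between times, called 0 of 10 (0.377%). At an unadjusted p under 0.05 there was 1 gene at 0 h (Per2), 0 at 4 h, 2 at 24 h (Per1 and Nr1d2), 1 over all times (Per2) and 2 in the interaction (Per1 and Dbp). The share of all probes at that unadjusted threshold was not counted, so nothing is read from these counts. By each gene's brightest probe, the 95% intervals of all 10 genes lay inside 2-fold in either direction at each of the 3 times. A dimmer Arntl probe, A_55_P2735445, had 0 h means more than 2-fold apart (-2.15 in S0 and -3.56 in E0) and is described below. The median size of the difference over the 10 genes was 0.053, 0.060 and 0.15 at 0, 4 and 24 h, beside 0.096, 0.14 and 0.15 over all probes. The nsPEF arrays had a smaller share of probes above background than the sham arrays (51.2 to 57.2% against 57.5 to 62.1%), whose part in the result was not tested, and under spike-in scaling, which moved every difference by 0.16 at 0 h and 0.19 at 4 h, Per2 was called higher at 0 h, and Per2 and Dbp at 4 h.

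**Figure D3:**
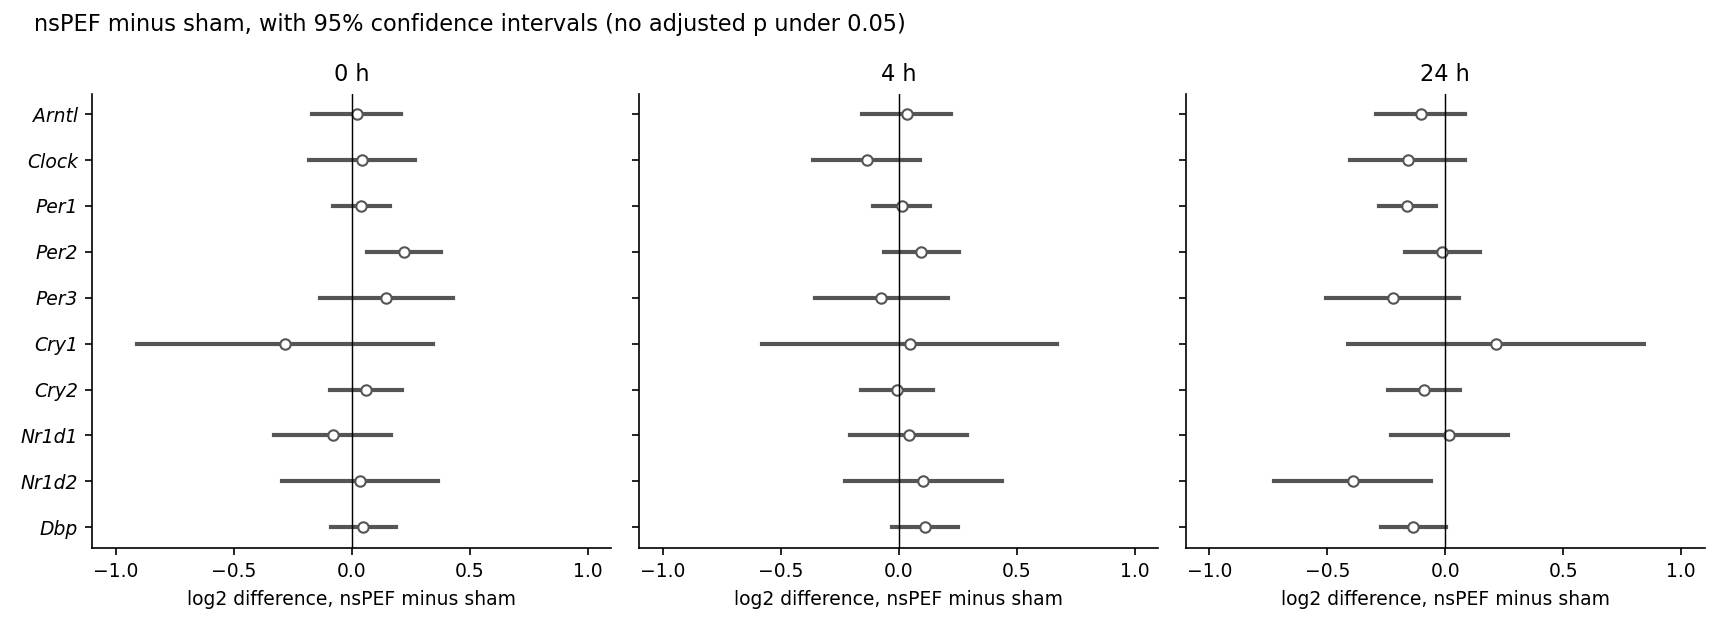
Differences between nsPEF and sham in the 10 clock genes on the log2 scale (horizontal axis), at 0, 4 and 24 h, with 95% confidence intervals of limma's fit. Open points mark an adjusted p of 0.05 or more, which held for every gene at every time. The 24 h panel shows 8 of 10 genes on the lower side, Nr1d2 lowest at -0.39, and Cry1 carries the widest intervals.

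The differences closest to the threshold were those of Per1, Nr1d2 and Dbp at 24 h and of Per2 at 0 h. Per1 was lower in nsPEF at 24 h by 0.16 in size (95% interval -0.28 to -0.040; adjusted p = 0.109, limma), with 3 E24 arrays at or below the lowest S24 array and 1 within the S24 range. Dbp differed by -0.13 (-0.27 to 0.0039; adjusted p = 0.241). Per2 differed by 0.22 at 0 h (0.062 to 0.38; adjusted p = 0.265), with 3 of 4 E0 arrays above all S0 arrays. Both Nr1d2 probes were above sham at 4 h and below it at 24 h. The brighter probe differed by 0.11 (-0.23 to 0.44; adjusted p = 0.741) and -0.39 (-0.72 to -0.060; adjusted p = 0.152). The dimmer probe was -0.91, -1.08, -0.87 and -1.04 in S4 and -0.63, -0.70, -0.64 and -0.92 in E4, and -0.21, -0.30, -0.36 and -0.41 in S24 and -0.47, -0.46, -0.61 and -0.62 in E24. Its 24 h groups did not overlap and its 4 h groups did, and its differences were 0.25 (adjusted p = 0.0567) at 4 h and -0.22 (adjusted p = 0.0773) at 24 h, with an adjusted p of 0.0632 in the interaction. The 4 h and 24 h values of this probe fell below 0.05 under some alternative settings and stayed above it under others.

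One Arntl probe was the only member probe called for nsPEF. A_55_P2735445 was lower in nsPEF over all times by 0.63 in size (adjusted p = 0.0420, limma), with -1.07, -1.91, -3.26 and -2.35 in S0 against -3.59, -4.04, -3.18 and -3.42 in E0. Its 4 h values were -2.26, -2.59, -1.63 and -2.48 in S4 and -2.73, -2.93, -2.71 and -2.72 in E4, with no overlap, and at 24 h the groups overlapped. E0 replicate 2 was not well above background, and S24 replicate 3 had no usable spot. Its S0 arrays spread from -3.26 to -1.07, whereas those of the other Arntl probes spread from -0.82 to -0.39 and from -3.33 to -2.99. The probe lies in row 381 of the rows of spots, which number 384, and the part of its position in the result was not tested. Its call was lost without any 1 of 18 arrays (adjusted p from 0.0507 to 0.0763) and under spike-in scaling (-0.55, adjusted p = 0.0577). The other 2 Arntl probes differed by -0.017 (adjusted p = 0.867) and -0.042 (adjusted p = 0.773) over all times. Between times in sham, A_55_P2735445 did not rise with them at 4 h (mean -2.15 in S0 and -2.24 in S4). It was called lower at 24 h than at 0 h in sham (-1.31, adjusted p = 0.00522, limma), where the brightest Arntl probe differed by 0.10 (adjusted p = 0.411). That call was lost on the spike-in scale (-0.59, adjusted p = 0.127).

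**Figure D4:**
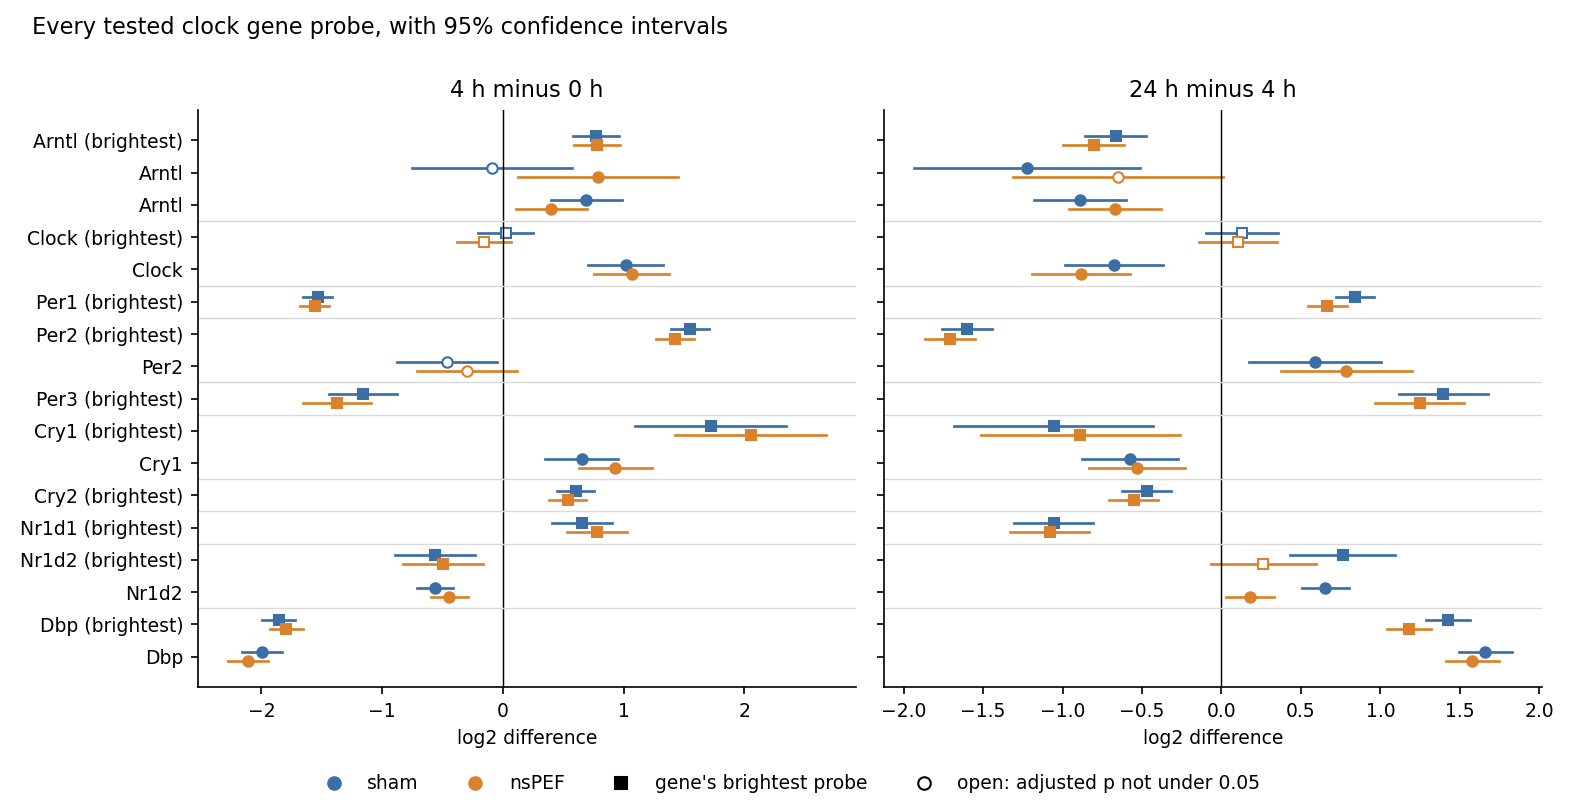
Differences from 0 h to 4 h and from 4 h to 24 h on the log2 scale (horizontal axes) for each of the 17 tested clock gene probes (vertical axis, grouped by gene), in sham (blue) and nsPEF (orange), with 95% confidence intervals. Squares are the brightest probe of a gene, circles its other probes, and open symbols an adjusted p of 0.05 or more. The probes of Dbp, Cry1 and Nr1d2 lie on the same side within each gene, whereas those of Clock and Per2, and those of Arntl in sham from 0 h to 4 h, do not.

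The other genes of the clock were taken as a list of 26 by role, 25 of which were on the array; Rorb was not matched, and Npas2 did not pass the detection filter. Of the remaining 24 genes, 18 were called at 4 h against 0 h in sham (12 higher and 6 lower) and 19 in nsPEF (11 and 8), against 59.1% and 61.3% of all probes, and 0 between nsPEF and sham at any time (2, 5 and 2 at an unadjusted p under 0.05 at 0, 4 and 24 h, limma). For the unadjusted counts the share of all probes was not counted. Rora encodes a receptor that activates Arntl. Rora fell by 1.14 in sham (adjusted p = 6.2e-04), with 2 of 4 S4 arrays above background, and was above background on 0 of 4 E4 arrays.

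Of 4 repressors outside the Per and Cry families, 3 were higher at 4 h in sham and 1 lower (29.4% and 29.7% of all probes), and 2 were higher and 1 lower in nsPEF (33.5% and 27.8%). Ciart, which encodes CHRONO, a repressor of the BMAL1 and CLOCK pair, rose from -2.24 ± 0.081 (SD, n = 4) in S0 to 0.084 ± 0.14 in S4 and was at -2.08 ± 0.032 in S24. Its 4 h difference was 2.33 in sham (5.01-fold; adjusted p = 1.8e-14, limma) and 2.64 in nsPEF (adjusted p = 2.4e-15), larger than that of any of the 10 members, and it fell again by 2.16 (adjusted p = 9.5e-14) and 2.21 (adjusted p = 7.8e-14). Bhlhe40, which encodes the E-box binding repressor DEC1, fell by 0.54 at 4 h in sham and by 1.22 over 24 h (adjusted p = 9.2e-10), and in nsPEF by 1.55 over 24 h (adjusted p = 2.2e-11). Arntl2, the paralogue of Arntl, went against it: it fell by 0.70 at 4 h in sham (adjusted p = 2.8e-06) and rose by 1.05 to 24 h (adjusted p = 1.2e-08).

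Of 9 kinases, phosphatase subunits and ubiquitin ligases that act on PER and CRY proteins, 6 were higher and 1 lower at 4 h in each treatment, and 0 of them by 2-fold, beside 29.4% higher, 29.7% lower and 17.4% past 2-fold over all probes in sham and 33.5%, 27.8% and 20.0% in nsPEF. Of 3 D-box binding factors other than Dbp, Hlf was higher and Tef lower at 4 h in both treatments, and Nfil3, which opposes them, was lower in nsPEF. Among 6 partners and outputs, Nampt and Sfpq were higher in both treatments. Timeless, which also acts at replication forks, fell by 1.11 at 4 h in sham (adjusted p = 2.8e-14) and by 1.18 in nsPEF (adjusted p = 8.9e-15), and rose again by 1.16 (adjusted p = 2.6e-14) and 1.24 (adjusted p = 1.1e-14).

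**Figure D5:**
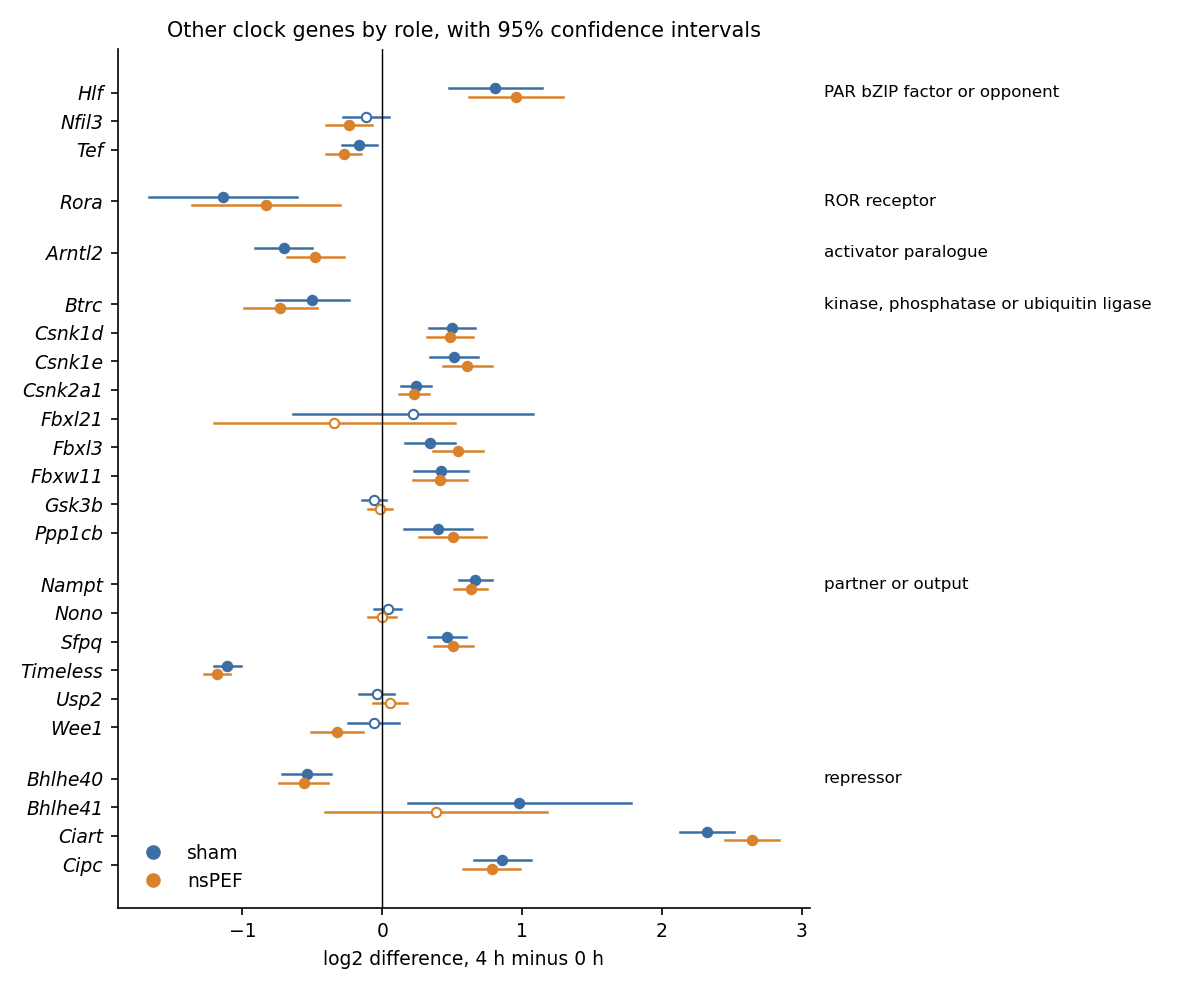
Differences from 0 h to 4 h on the log2 scale (horizontal axis) in these 24 other clock genes, grouped by role, in sham (blue) and nsPEF (orange), with 95% confidence intervals; filled points have an adjusted p under 0.05. Ciart is highest in both treatments. Rora in nsPEF rests on 4 h arrays that were not well above background, so its point there is a fitted value and no measured fold.

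The genes whose pattern over the arrays was most like each member's are named as a description, by Pearson's r among 23398 tested probes of other named genes. The arrays share 3 slides and large time differences, so a high r says little more than that 2 probes followed the same steps between times. Per1 was followed most closely by Nnmt (r = 0.994, 24 arrays) and Fbxw4 (0.993), Dbp by Polr3gl and Asap3 (each 0.993), and Per2 by Rsbn1 (0.991) and Kansl3 (0.990). Cry2 was followed by H2-K1 (0.985) and Cab39 (0.983), Per3 by Ankzf1 (0.978) and Rad54b (0.971), Arntl by Mettl25 (0.970) and Prps1l3 (0.968), and Nr1d1 by Nrg1 (0.967) and Smtn (0.964). Nr1d2 and Cry1 had looser matches, Ncapg2 (0.936) and Ppp2r5c (0.921) for the first and Msantd3 (0.928) and Layn (0.922) for the second. Clock had the loosest, Nsd3 (0.807) and Pias2 (0.794) over 23 arrays. Among the members themselves r over 24 arrays was 0.961 for Dbp and Per1, 0.948 for Arntl and Cry2, -0.943 for Per2 and Per3 and -0.792 for Per1 and Per2. Within groups, after each group's mean was removed, the same pairs gave 0.474, 0.480, -0.105 and -0.133.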

How the data were processed

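Total RNA of 24 samples was labelled with Cy3 and hybridised, 1 array a sample. Per the file headers and the study's methods, the authors scanned the arrays and ran Feature Extraction 12.0, and the deposited processed signal is a background-subtracted and detrended intensity on a linear scale. The authors also deposited a table of log2 values (shifted to the 75th percentile and set to a baseline in GeneSpring), used here only as an alternative. The deposited coordinates name another mouse build than the promoter windows and were not used.

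From the intensities, control spots (3671 of 62976) and spots marked as outliers were left out, spots of a probe were averaged, and log2 of the signal minus the array's 75th percentile over probes was taken. That percentile was a signal of 202 to 533, 0 spots were saturated, and correlations between replicates were 0.98 or more. Probes were named through the RefSeq accession in their annotation (34566 of 56605 probes have a symbol). A probe was tested where at least 2 of 4 arrays of a group were well above background, which left 37684. limma 3.58.1 in R 4.3.3 (lmFit, contrasts of 6 group means over all 24 arrays, eBayes) gave two-sided p-values, adjusted by Benjamini-Hochberg over all tested probes. Every adjusted p in the text is from this limma fit or from the alternative named beside it. The number of arrays limits the precision. The rule for named genes was to give every member, and to give values, of the other clock genes, for those called and past 2-fold between times in sham; genes of like pattern were the 2 with the highest Pearson's r. The members and lists were chosen with earlier results of these data known. The script was tested on simulated data: of 200 probes raised or lowered by 1 log2 unit at 4 h in sham, 148 were recovered with the right sign among 35691, with 10 false calls. Promoter sequences came from RefSeq (GRCm38.p6). Alternatives changed the scaling, background correction, filter, handling of marked spots, fit, probe choice and the arrays left out. Of these, the 75th percentile over spots was chosen after seeing the data. A gene of the wider clock list is not reported here.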

Additional observations from a re-analysis of the deposited data

Results flagged for a closer look

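In 7 of the 100 groups of 4 arrays checked (17 probes by 6 groups, less 2 groups of 3 arrays), the highest or lowest array stood apart from the other 3 by more than Dixon's 95% limit for the share of the group's range. Chance alone gives about 1 in 20 such groups. Arntl read -0.8172 in S0 replicate 1 on probe A_52_P267651, the lowest Arntl value there. On the other Arntl probes, E4 replicate 2 read -2.929 (A_55_P2735445) and S24 replicate 1 read -3.52 (A_66_P127371), each the lowest of its group. Per2 read -0.4134 in S0 replicate 3, below the other S0 arrays. On the dimmer Dbp probe A_55_P2032079, E0 replicate 1 read 1.106. Nr1d1 read -2.079 in S24 replicate 2, the highest of its group, and Nr1d2 read 0.3989 in S24 replicate 4 on probe A_55_P2911007, the lowest. Each of the 7 values came from a different array.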

How the results depend on the processing

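The count of members called over time stayed at 9 and that at 4 h against 0 h in sham at 8 to 9 when arrays were left out, in nsPEF at 8 to 10. From 4 h to 24 h it ranged over 9 to 9 and 7 to 8, at 24 h against 0 h over 2 to 3 in sham and 4 to 5 in nsPEF, and it was 0 between nsPEF and sham and in the interaction. The 2-fold counts ranged over 5 to 5 (4 h against 0 h, both), 4 to 5 and 3 to 5 (24 h against 4 h), and 0 and 0 to 1 (24 h against 0 h). With normexp background correction the 2-fold counts were 3 and 3 at 4 h against 0 h and 2 and 2 at 24 h against 4 h, and the mean of a gene's probes gave 3 in sham from 4 h to 24 h. At 24 h against 0 h in sham, 8 genes were called under spike-in scaling (1 by 2-fold), 6 with array weights and 5 with the mean of probes. In nsPEF, 3 were called with only the arrays of the groups compared, and the 2-fold count was 0 there and under quantile normalisation, normexp, centring by spot row and signal, array weights and the mean of probes. Between nsPEF and sham spike-in scaling called 1 at 0 h, 2 at 4 h and 1 over all times, array weights 1 at 24 h (Nr1d2, -0.51, adjusted p = 0.0138), and the mean of probes 1 over all times (Arntl, -0.27, adjusted p = 0.0234). Spike-in scaling called 2 in the interaction.

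Values called in either fit turned sign under 2 settings. Under spike-in scaling sham from 4 h to 24 h gave 0.083 for Cry1 A_55_P2880103 and 0.19 for Cry2. Sham at 24 h against 0 h gave 0.51 for Arntl A_66_P127371, 0.28 and 0.37 for the Dbp probes, 0.31 for Nr1d1, 0.013 for Per1 and 0.66 for Per2. nsPEF at 24 h against 0 h gave 0.46 for Arntl, 0.47 for Clock, 0.47 for Cry2, 0.18 for Nr1d1, 0.22 for Nr1d2 A_52_P303891, 0.20 for Per2 and 0.35 for Per3, and, called in neither fit, 0.25 for Nr1d2 A_55_P2911007 and 0.21 for Arntl A_66_P127371. With the mean of a gene's probes Arntl gave -0.34 in sham at 24 h against 0 h, Clock 0.46 in nsPEF at 4 h against 0 h and -0.48 from 4 h to 24 h, and Per2 0.10 in nsPEF at 24 h against 0 h; here the added probes are the difference. The cause of the other changes was not tested. The Arntl probe A_55_P2735445, called over all times, was lost under 8 settings that did not leave out arrays. Of the values for single probes under such settings, 2331 kept their side of the threshold without a called value turning, 111 of them with the sign of an uncalled value turned, 62 lost a call and 68 gained one.

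A fit with the replicate number as a block changed no count of members called (9 over time, 9 and 9 at 4 h against 0 h, 9 and 8 at 24 h against 4 h, 3 and 5 at 24 h against 0 h), but it ended the calls of Arntl A_55_P2735445 over all times (-0.63, adjusted p = 0.0543) and in nsPEF at 4 h against 0 h (0.79, adjusted p = 0.0503), and it added calls of Per2 A_52_P536869 in sham at 4 h (-0.46, adjusted p = 0.0468) and in nsPEF at 24 h against 0 h (0.49, adjusted p = 0.0481) and of Clock A_52_P334670 in sham at 24 h against 0 h (0.34, adjusted p = 0.0326). The study ran the tests of a replicate on a shared suspension of cells, but the labels do not tie the numbers to suspensions. In the data the numbers paired the samples weakly at most. Over 60 pairs of same-numbered arrays in different groups the deviations from the group means correlated at -0.0651 to 0.0997, 0 of them above 0.1. Of the 60, 23 correlated best with their own number, more than a random choice among 4 arrays gives on average. Between sham and nsPEF of a time it was 7 of 12.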
